A study of Mus musculus with 12 samples.

Results

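Expression of 10 antimicrobial and acute phase genes was followed in mouse colon: the lectins Reg3b and Reg3g, the goblet cell products Retnlb and Ang4, the iron-trapping protein Lcn2, the serum amyloid A genes Saa1, Saa2 and Saa3, and S100a8 and S100a9, which encode the subunits of calprotectin. The genes were taken by symbol from the platform annotation, where all 10 were found, each with 1 probe, among 19505 named genes on 22206 probes. Samples were healthy colonic tissue of male mice aged 12 to 16 weeks. There were 4 genotypes with 3 arrays each: wild type, a LAO1 knockout, an IL4i1 knockout, and a double knockout that lacks both genes. The sources used here do not give the strain, how the alleles were made, or whether an array held 1 mouse or a pool. The p-values therefore reflect only how far these arrays spread, and that spread may be technical. LAO1 and IL4i1 are L-amino acid oxidases, and the series set out to examine colonic inflammation after the loss of both.

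These genes belong to the chemical defence of the gut surface. Epithelial cells secrete lectins and small cationic proteins that bind or kill bacteria, and they make more of many of them when bacteria come close or when interleukin-22, interleukin-17 or interleukin-1 reach the epithelium. Serum amyloid A carries lipids and retinol and is made by the liver in the acute phase and locally by the intestinal epithelium. Calprotectin and Lcn2 withhold metal ions and iron from bacteria, are abundant in neutrophils, and are used in stool or tissue as markers of intestinal inflammation.

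Values are on the log2 scale as deposited, where 1 unit is a doubling, and the table runs from 1.72 to 19.93. The 95th percentile of the 1091 probes for olfactory receptors, genes not known for a role in this tissue, lay between 4.55 and 5.02 over the arrays and served as the dim level, at or below which a value carries no reliable amount. All 10 epithelial markers listed (among them Epcam, 14.82 to 16.3, and Cdx2, 11.61 to 13.55) stood above it on all 12 arrays, and the 8 hepatocyte markers averaged 4.59 to 5.5. Among the latter Alb, the defining one, lay at 3.83 to 5.47 (above the dim level on 6 arrays), Apoa1, Apoh and Ahsg were above it on no array, and Tat was above it on all 12 (6.44 to 9.63). Some arrays stood apart. Pancreatic acinar genes averaged 14.66 on double knockout replicate 2 and 4.18 to 4.9 on the others, and the epithelial markers Krt18, Cldn7 and Krt20 were highest on IL4i1 knockout replicate 2 (15.64, 15.68 and 18.01). In whole tissue, fewer cells of a type and less RNA per cell cannot be told apart.

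In double knockout replicate 1 the lectins Reg3b and Reg3g, together with Lcn2, S100a8, S100a9 and Saa3, reached their highest values of the series. The other double knockout arrays did not share this, and 0 of the 10 genes passed limma's test against wild type. Saa1 and Saa2 stood higher in both single knockouts than in wild type but not in the double knockout, Retnlb stood lower in the IL4i1 knockout, and Ang4 had lower means in the IL4i1 and double knockouts with overlapping arrays; none of these differences passed either. The values are given gene by gene below, with the tests after them.

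**Figure D1:**
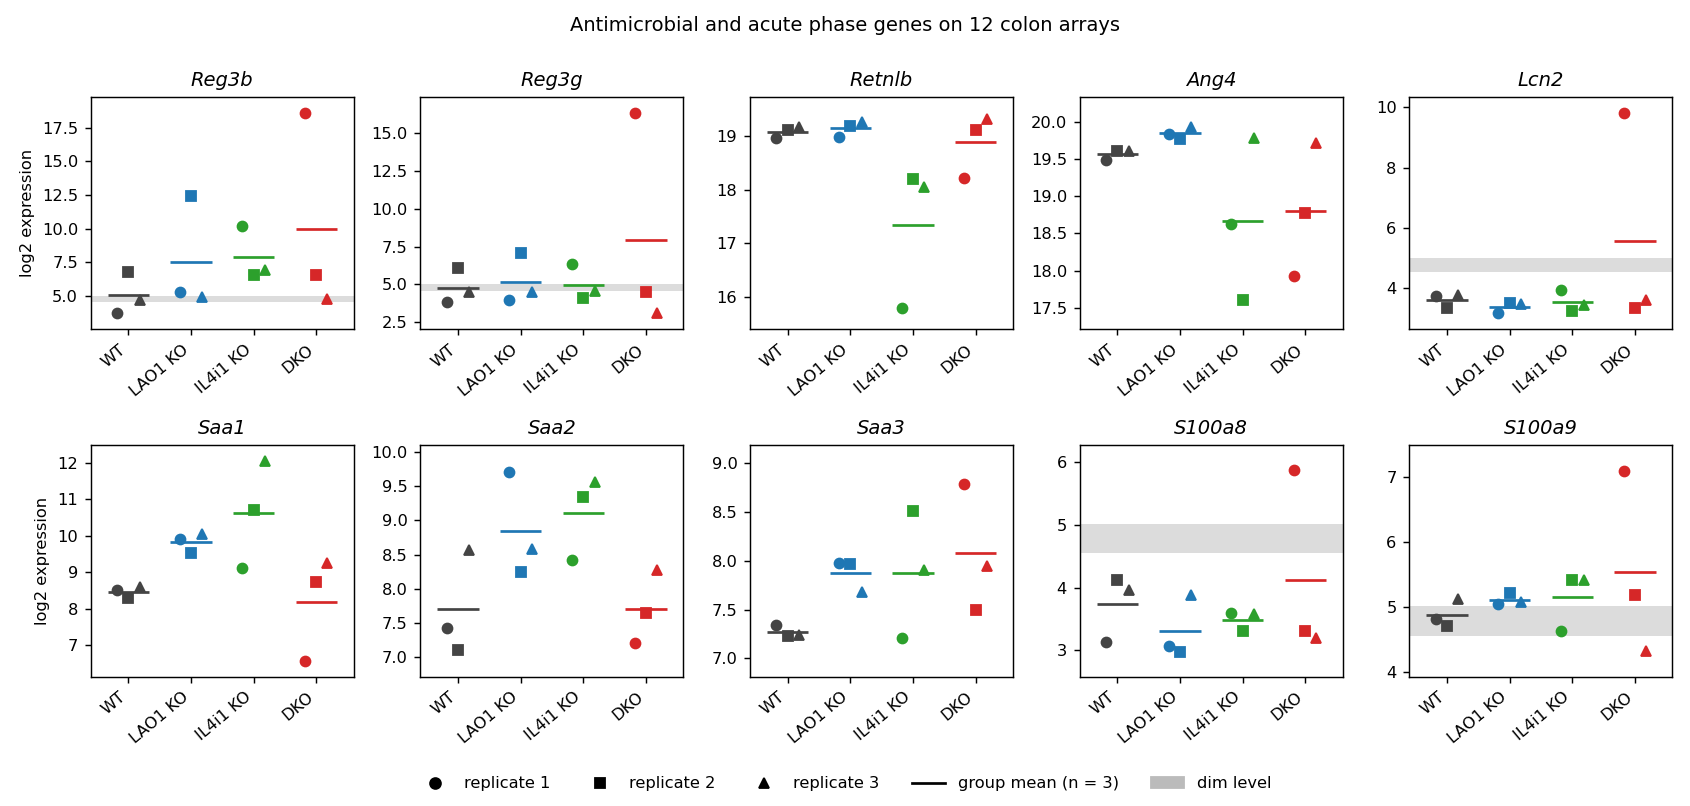
Log2 expression of the 10 genes on each of 12 arrays, by genotype, with a separate vertical scale for each gene; symbols mark the replicate numbers, horizontal lines the group means (n = 3), and the grey band the dim level of 4.55 to 5.02. Double knockout replicate 1 lies far above all other arrays for Reg3b (18.59), Reg3g (16.34) and Lcn2 (9.81), and lowest of all for Saa1 (6.57).

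Reg3b and Reg3g encode C-type lectins that kill bacteria at the epithelial surface, Reg3g acting mainly on Gram-positive bacteria. They lie in 1 gene cluster, with the 4 coding genes Reg3d, Reg3a, Reg2 and Reg1 between them. The 250 bases before the start of each are shown because both genes followed one another over the arrays, as described next. Sequences are from RefSeq (GRCm38.p6), run 5′ to 3′ in the direction of the gene, and carry in capitals every match, on either strand, to the motifs searched, which were TTCNNNGAA for STAT factors, TTGCNNAA for C/EBP factors, TATAAA for the TATA box and the NF-kB decamer.
Reg3b, chr6:78370635-78370884, plus strand: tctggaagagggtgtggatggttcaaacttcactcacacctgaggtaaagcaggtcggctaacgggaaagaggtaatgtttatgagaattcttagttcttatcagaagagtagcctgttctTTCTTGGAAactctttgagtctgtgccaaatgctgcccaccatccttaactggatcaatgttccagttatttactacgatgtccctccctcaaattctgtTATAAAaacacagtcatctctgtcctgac
Reg3g, chr6:78468875-78469124, minus strand: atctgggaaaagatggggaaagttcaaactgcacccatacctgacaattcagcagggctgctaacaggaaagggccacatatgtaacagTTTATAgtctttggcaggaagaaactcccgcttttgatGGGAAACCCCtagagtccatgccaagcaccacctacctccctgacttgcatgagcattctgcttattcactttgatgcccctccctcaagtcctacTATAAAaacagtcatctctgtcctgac
Aligned end to end, 177 of 257 columns (68.9%) were identical, and no other pair of members except Saa1 and Saa2 came above 53.5%. Both hold TATAAA, from base -29 in Reg3b and from base -27 in Reg3g, counted back from the start of the gene. The STAT motif from base -129 was found in Reg3b and not in Reg3g, and the NF-kB decamer from base -123 in Reg3g and not in Reg3b. Over all 32851 windows of this length, TATAAA occurred in 12.4%, the STAT motif in 7.02% and the decamer in 3.9%. A match describes letters and not a working site.

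Reg3b read 3.7, 6.74 and 4.72 on the wild type arrays, 5.29, 12.46 and 4.88 on those lacking LAO1, 10.19, 6.54 and 6.95 on those lacking IL4i1 and 18.59, 6.52 and 4.75 on those lacking both (replicates 1, 2 and 3). It thus varied from the dim level to near the top of the scale among arrays of 1 genotype. Its range of 14.89 was the 6th largest of all 22206 probes, against a median range of 1.09. Only 1 of 3 wild type arrays lay above the dim level, against 3 of 3 in each single knockout and 2 of 3 in the double knockout. Some of these calls had narrow margins. LAO1 knockout replicate 3 read 4.88 against a dim level of 4.845 on that array. Wild type replicate 3 read 4.72 against 4.995, and double knockout replicate 3 4.75 against 4.88. Reg3g read 3.83, 6.07 and 4.49 on the wild type arrays, 3.96, 7.06 and 4.49 on those lacking LAO1, 6.35, 4.08 and 4.54 on those lacking IL4i1 and 16.34, 4.47 and 3.09 on those lacking both. Within each genotype the array highest in Reg3b was also the one highest in Reg3g, and in each genotype it was the only array with Reg3g above the dim level. The groups overlapped for both genes.

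Means of Reg3b were 5.05 ± 1.55 in wild type, 7.54 ± 4.26 in the LAO1 knockout, 7.89 ± 2 in the IL4i1 knockout and 9.95 ± 7.53 in the double knockout (SD, n = 3). The difference of the double knockout from wild type was 4.9 (95% interval -1.28 to 11.08, adjusted p = 0.75), and without double knockout replicate 1 it was 0.58. That of the LAO1 knockout was 2.49 (adjusted p = 1) and became 0.03 without LAO1 knockout replicate 2, while that of the IL4i1 knockout was 2.84 (adjusted p = 0.83) and became 1.69 without IL4i1 knockout replicate 1. For Reg3g the difference was 3.17 in the double knockout (SE 2.44, adjusted p = 0.825), and -1.02 without replicate 1. In the LAO1 and IL4i1 knockouts Reg3g differed by 0.37 and 0.19 (SE 2.44 for both), and by -0.57 and -0.49 without the 1 high array of each.

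Retnlb and Ang4 are goblet cell and crypt products of the colon: Retnlb encodes RELMβ, which binds bacterial membranes, and Ang4 an angiogenin-type ribonuclease with antimicrobial activity. Both probes were among the brightest of the table, at ranks 43 and 26 by mean level, and Ang4 touched the ceiling of 19.93 in LAO1 knockout replicate 3, so upward differences of these genes may be compressed. Retnlb read 18.96, 19.1 and 19.16 on the wild type arrays, 18.98, 19.19 and 19.25 on those lacking LAO1, 15.8, 18.2 and 18.04 on those lacking IL4i1 and 18.21, 19.1 and 19.32 on those lacking both. All 3 IL4i1 knockout arrays lay below every array of wild type, the LAO1 knockout and the double knockout. The margin to the double knockout was minimal, at 18.2 against 18.21. The mean was 17.35 ± 1.34 in the IL4i1 knockout and 19.07 ± 0.1 in wild type (SD, n = 3), a difference of -1.73 (95% interval -2.79 to -0.66, unadjusted p = 0.00388 in limma's test) that did not pass over all probes (adjusted p = 0.52). Without IL4i1 knockout replicate 1, the lowest array, it was -0.95. In the LAO1 knockout and the double knockout Retnlb differed from wild type by 0.07 and -0.2 (SE 0.49, adjusted p = 1 and 0.959).

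Ang4 read 19.49, 19.6 and 19.61 on the wild type arrays and 19.83, 19.77 and 19.93 on those lacking LAO1, all 3 of which lay above wild type by a small step. It spread more widely without IL4i1, at 18.62, 17.61 and 19.78, and without both genes, at 17.92, 18.77 and 19.71. Differences from wild type were 0.28 (LAO1 knockout, adjusted p = 1), -0.9 (IL4i1 knockout, 0.673) and -0.77 (double knockout, 0.773), each with an SE of 0.48. Without IL4i1 knockout replicate 2 the second was -0.37 and without its replicate 3 -1.45, and the last was -0.33 without double knockout replicate 1 and -1.22 without its replicate 3. The arrays lowest in Ang4, IL4i1 knockout replicate 2 and double knockout replicate 1, also had the lowest averages of the 10 goblet cell markers. In IL4i1 knockout replicate 2 the mucus proteins Fcgbp and Zg16 were at 17.51 and 16.9 and the trefoil factor Tff3 at 15.14, and in double knockout replicate 1 they were at 16.96, 16.71 and 16.29. Over all arrays their medians were 19.23, 18.22 and 16.98, and Tff3 was as low (16.3) on the other double knockout arrays. The marker Galnt12 went the other way and was highest (10.87) on IL4i1 knockout replicate 2. The 10 markers together averaged 15.45 and 15.33 on these arrays and 15.75 to 16.39 on the others, and the part of this in the Ang4 values was not tested. On IL4i1 knockout replicate 1, which was lowest in Retnlb and next lowest in Ang4 after these arrays (18.62), the goblet average was 16.03.

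Lcn2, which captures bacterial iron carriers, was below the dim level on 11 of 12 arrays: the wild type arrays read 3.74, 3.35 and 3.79, those lacking LAO1 3.17, 3.51 and 3.47, and those lacking IL4i1 3.94, 3.26 and 3.44. Arrays lacking both read 9.81, 3.33 and 3.6, so that 1 array alone had a measurable level. S100a8 showed the same shape at a smaller size, at 5.88 in double knockout replicate 1 and 2.98 to 4.12 elsewhere, where it was dim on all 11 arrays. S100a9 stood at 7.09 on that array and at 4.33 to 5.41 on the others, close to the dim level.

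The mean differences of the double knockout from wild type were 1.95 for Lcn2 (SE 1.18, adjusted p = 0.763), 0.39 for S100a8 (SE 0.56, adjusted p = 0.918) and 0.65 for S100a9 (SE 0.5, adjusted p = 0.825). Without double knockout replicate 1 they were -0.16, -0.49 and -0.12. In the single knockouts Lcn2, S100a8 and S100a9 differed from wild type by between -0.43 and 0.27, with adjusted p between 0.926 and 1, among values that were mostly dim. S100a8 and S100a9 neighbour each other on the chromosome with no coding gene between them. Of all members S100a9 had the profile closest to S100a8, with a mean absolute difference of 0.45 between the values of both, each taken less its own mean over 12 arrays. S100a9 in turn was closer to Saa3 (0.33) than to S100a8. Since S100a8 was above the dim level on 1 of 12 arrays, its distances rest mostly on dim values.

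Of the serum amyloid A genes, Saa1 and Saa2 behaved differently from the lectins, while Saa3, like the lectins, was highest on double knockout replicate 1 (8.79). Saa1 and Saa2 are adjacent genes, with 0 coding genes between them, and encode closely related acute phase apolipoproteins; Saa3 lies beside them, with Saa4 in between, and is expressed in many tissues outside the liver. The bases before Saa1 and Saa2 are shown, in the same notation, because both genes had the same order of single knockouts above the other groups, and those before Lcn2 for comparison with Reg3b and Reg3g, the genes that peaked on the same array.
Saa1, chr7:46742981-46743230, minus strand: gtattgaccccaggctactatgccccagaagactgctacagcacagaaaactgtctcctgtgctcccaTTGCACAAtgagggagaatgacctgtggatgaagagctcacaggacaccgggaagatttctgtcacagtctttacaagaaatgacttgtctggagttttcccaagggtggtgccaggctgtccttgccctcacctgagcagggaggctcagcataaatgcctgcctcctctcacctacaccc
Saa2, chr7:46751583-46751832, plus strand: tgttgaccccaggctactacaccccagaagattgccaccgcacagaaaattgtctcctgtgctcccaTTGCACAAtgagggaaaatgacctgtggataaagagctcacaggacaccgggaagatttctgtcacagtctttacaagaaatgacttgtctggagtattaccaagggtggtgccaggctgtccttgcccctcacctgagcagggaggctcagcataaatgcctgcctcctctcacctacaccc
Lcn2, chr2:32387740-32387989, minus strand: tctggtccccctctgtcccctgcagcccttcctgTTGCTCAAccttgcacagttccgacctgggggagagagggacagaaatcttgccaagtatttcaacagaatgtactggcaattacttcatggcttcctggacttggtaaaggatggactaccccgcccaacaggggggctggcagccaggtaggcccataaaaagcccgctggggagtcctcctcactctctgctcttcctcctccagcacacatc
Saa1 and Saa2 were identical at 238 of 251 columns (94.8%), and the C/EBP motif stood from base -182 in Saa1 and from base -183 in Saa2. With Lcn2 (from base -216), Saa3 and S100a9, 5 of the 9 members with a promoter sequence held that motif, against 9.56% of all windows. Retnlb had no promoter sequence. Since Saa1 and Saa2 are near copies here, their matches are not independent, and a match describes letters only. Whether probes for such similar genes separate the transcripts of Saa1 and Saa2 was not tested.

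Saa1 read 8.51, 8.28 and 8.6 on the wild type arrays, 9.9, 9.54 and 10.04 on those lacking LAO1, 9.11, 10.71 and 12.06 on those lacking IL4i1 and 6.57, 8.72 and 9.24 on those lacking both. All arrays of both single knockouts lay above all wild type arrays, and all double knockout arrays lay below all LAO1 knockout arrays. The means were 8.46 ± 0.17, 9.83 ± 0.26, 10.63 ± 1.48 and 8.18 ± 1.42 in that order (SD, n = 3). The IL4i1 knockout stood 4.48-fold above wild type (log2 2.16, 95% interval 0.71 to 3.62, unadjusted p = 0.0068, adjusted p = 0.533 in limma's test), and the LAO1 knockout 2.57-fold (1.36, -0.09 to 2.82, adjusted p = 1). In the double knockout the difference from wild type was -0.29 (-1.74 to 1.17, adjusted p = 0.957), or 0.52 without replicate 1.

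Saa2 read 7.43, 7.11 and 8.57 on the wild type arrays, 9.71, 8.24 and 8.58 on those lacking LAO1, 8.42, 9.35 and 9.56 on those lacking IL4i1 and 7.2, 7.64 and 8.27 on those lacking both. Its means, like those of Saa1, were higher in both single knockouts than in the other groups, but wild type replicate 3 reached into the range of the single knockouts. Its differences from wild type were 1.14 in the LAO1 knockout (SE 0.46, unadjusted p = 0.0271, adjusted p = 1; 0.71 without its replicate 1), 1.41 in the IL4i1 knockout (SE 0.46, unadjusted p = 0.00885, adjusted p = 0.533) and 0 in the double knockout (95% interval -0.99 to 0.99).

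Saa3 was at 7.34, 7.23 and 7.24 on the wild type arrays, a spread of 0.06 (SD). It read 7.98, 7.97 and 7.68 on those lacking LAO1, 7.21, 8.51 and 7.9 on those lacking IL4i1 and 8.79, 7.49 and 7.95 on those lacking both. The LAO1 knockout and double knockout arrays all lay above the wild type arrays, and in the IL4i1 knockout 2 of 3 did. Unlike Saa1 and Saa2, this gene stood no lower in the double knockout than in the single knockouts, at 8.08 ± 0.66 against 7.88 ± 0.17 and 7.87 ± 0.65 (SD, n = 3). Against wild type the differences were 0.61 and 0.6 in the LAO1 and IL4i1 knockouts (adjusted p = 1 and 0.69), the second being 0.28 without IL4i1 knockout replicate 2, and 0.81 in the double knockout (SE 0.34, unadjusted p = 0.033, adjusted p = 0.632), the last being 0.45 without double knockout replicate 1. Adipocytes can also make Saa3. The 9 adipocyte markers measured averaged 5.96 to 6.32 in wild type and 5.27 to 5.96 in the double knockout. Their median difference was -0.26, with 8 lower and 1 higher in the double knockout. Adipoq had the largest difference, at 4.76 to 5.87 in wild type and 3.11 to 4.12, all dim, in the double knockout. The part of adipocytes in the Saa3 values was not tested.

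**Figure D2:**
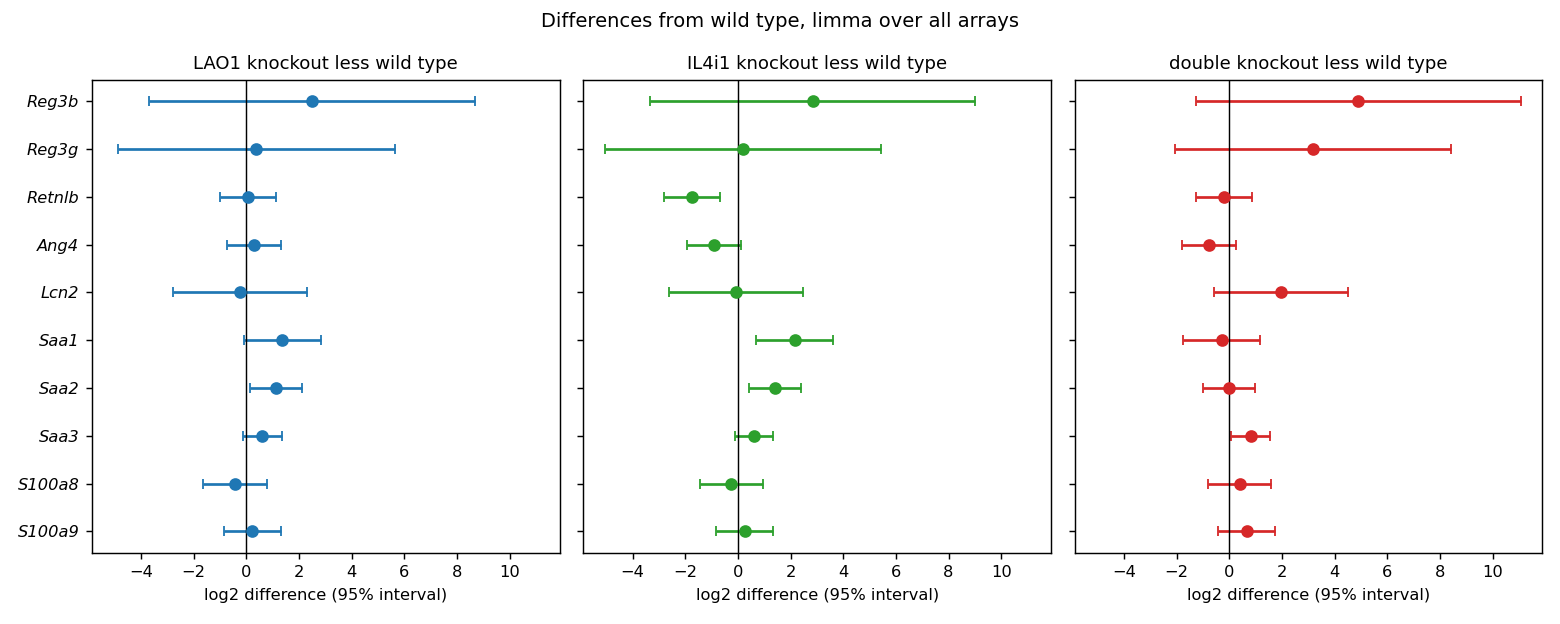
Log2 difference of each knockout genotype from wild type for the 10 genes (points) with limma's 95% interval (bars), n = 3 arrays per genotype. Intervals are widest for Reg3b and Reg3g, and in the IL4i1 knockout those of Saa1, Saa2 and Retnlb do not reach 0, although none of the 30 differences passed after adjustment over all probes.

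Against wild type, 0 of 10 members passed limma's test at an adjusted p under 0.05 in any genotype, where 0.0225% of all probes passed in the double knockout, 0.0045% after LAO1 loss and 0.0135% after IL4i1 loss. An unadjusted p under 0.05 was reached by 1 member in the double knockout (Saa3; 7.44% of all probes), 1 in the LAO1 knockout (Saa2; 3.02%) and 3 in the IL4i1 knockout (Retnlb, Saa1 and Saa2; 7.58%). Groups did not overlap for 1 member in the double knockout (11.6% of all probes), 3 after LAO1 loss (8.53%) and 2 after IL4i1 loss (11.1%). The double knockout share thus lay near that of all probes. The median difference over the members was 0.52 in the double knockout, 0.33 after LAO1 loss and 0.23 after IL4i1 loss, beside 0, 0.01 and 0.03 over all probes. These comparisons share the wild type arrays. Without double knockout replicate 1, Reg3g, Lcn2, S100a8, S100a9 and Ang4 differed from wild type by -1.02, -0.16, -0.49, -0.12 and -0.33. Reg3b, Saa1, Saa3 and Retnlb then differed by 0.58, 0.52, 0.45 and 0.14. The median over the members without that array was not computed, so 0.52 is not a shift shared by the double knockout arrays.

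Setting the double knockout against each single knockout asks what the second loss adds. Again 0 members passed, where 0.14% of all probes did against the LAO1 knockout and 0.477% against the IL4i1 knockout. Saa1 stood lower in the double knockout by 1.65 than in the LAO1 knockout and by 2.45 than in the IL4i1 knockout (differences -1.65 and -2.45, SE 0.68, adjusted p = 0.66 and 0.182), and Saa2 differed by -1.14 and -1.41 (SE 0.46, adjusted p = 0.653 and 0.277). Retnlb was higher in the double knockout than in the IL4i1 knockout (1.53, SE 0.49, adjusted p = 0.273). The arrays did not overlap, but the nearest read 18.21 and 18.2. Ang4 was lower in the double knockout than in the LAO1 knockout (-1.04, SE 0.48, adjusted p = 0.692), also with no overlap. Several of these values rest on 1 array: against the LAO1 knockout, Saa1 differed by -0.85 and Ang4 by -0.60 without double knockout replicate 1, and Saa2 by -0.71 without LAO1 knockout replicate 1. Against the IL4i1 knockout, Retnlb differed by 0.76 without IL4i1 knockout replicate 1. At an unadjusted p under 0.05 there were 3 members against the LAO1 knockout (Ang4, Saa1 and Saa2; 7.15% of all probes) and 3 against the IL4i1 knockout (Retnlb, Saa1 and Saa2; 9.83%). Groups were separate for 2 members in each comparison, against 12.7% of all probes in both.

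The interaction takes the effect of IL4i1 loss on top of LAO1 loss and subtracts the effect of IL4i1 loss alone, and so measures how far the joint loss departs from the sum of the single losses. It was -3.81 for Saa1 (95% interval -5.87 to -1.75, unadjusted p = 0.00149, adjusted p = 0.229) and -2.55 for Saa2 (-3.95 to -1.15, unadjusted p = 0.00169, adjusted p = 0.238). Neither passed over all probes, of which 0.23% did, and these were the 2 members with an unadjusted p under 0.05 (7.12% of all probes). Without IL4i1 knockout replicate 1, whose Saa1 value was the lowest of its group, the interaction of Saa1 was -4.57 with an adjusted p of 0.0488; without double knockout replicate 1 it was -3.01 (adjusted p = 0.378). For Retnlb it was 1.46 (adjusted p = 0.714), or 0.69 without IL4i1 knockout replicate 1, and for Saa3 -0.4 (adjusted p = 0.921). The interactions of Reg3b, at -0.43, and Reg3g, at 2.6, had 95% intervals of -9.17 to 8.31 and -4.82 to 10.03, and both changed sign when single arrays were left out.

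**Figure D3:**
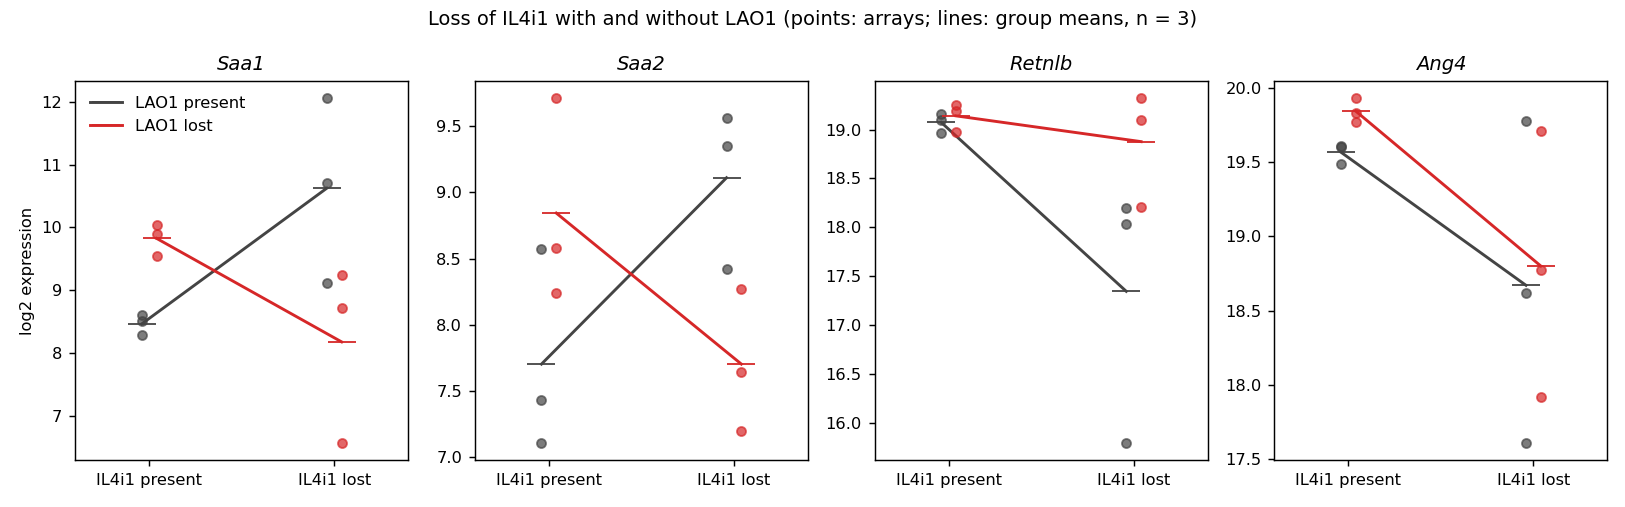
Log2 expression of Saa1, Saa2, Retnlb and Ang4 by IL4i1 status (horizontal axis) with LAO1 present (grey) or lost (red); points are arrays, lines join group means (n = 3), and each gene has its own scale. For Saa1 and Saa2 the lines cross: loss of IL4i1 goes with higher values where LAO1 is present and lower values where it is lost.

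Double knockout replicate 1 held the highest value of 6 of the 10 genes (Reg3b, Reg3g, Lcn2, S100a8, S100a9 and Saa3) and the lowest of Saa1. In 5 of them, all but Saa3, it exceeded the next array by more than 1 log2 unit, which was so for 123 of 19505 named genes (0.631%). No other array exceeded the next by that much for more than 1 member, the single case being Saa1 on IL4i1 knockout replicate 3. Many other genes also peaked on double knockout replicate 1. Its share of the highest values over all named genes was a little over 12%. It lay between the shares of wild type replicate 1 (9.38%) and IL4i1 knockout replicate 2 (14.9%). The counts of highest values on double knockout replicate 1 given below are to be read beside this share. Those by more than 1 log2 unit are to be read beside the 0.631%. A list of 23 genes around the interleukin-22 and interleukin-17 route also held general inflammatory genes such as Il1b, Tnf, Il6, Myd88 and Tlr4. Of the 23, 7 had their highest value on this array, and the 3 that did so by more than 1 log2 unit were Il1b, Tnf and Il6. The part of any of them in the values of the members was not tested. Il1b, which encodes interleukin-1β, was at 10.79 there and at 4.5 to 6.24 on the other arrays, Tnf at 6.84 against 2.86 to 4.07, and Il6 at 5.29 against 2.5 to 3.59. Socs3, a feedback target of STAT3, was at 5.47 against 3.74 to 4.47. Of 7 neutrophil chemokines and growth factors, 4 were highest there: Cxcl2 and Cxcl5 at 5.33 and 6.02, both dim elsewhere, Cxcl3 at 5.78 against 4.58 to 5.22, and Cxcl1 at 4.51, which is itself dim. Ppbp, Csf3 and Csf2 were dim on all 12 arrays. Il17a had its highest value there (4.95, its only one above the dim level, against 4.01 to 4.81), and Il22, Il17c, Il17f and Il23a were dim on all 12 arrays.

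Neutrophil genes were examined because calprotectin and Lcn2 are also neutrophil products. On double knockout replicate 1 the receptor Csf3r was at 6.65 against 4.59 to 5.2 on the others, while the granule enzymes Mpo (4.85) and Elane (4.07) lay within the range of the other arrays (4.03 to 5.4 and 4.06 to 4.73), near or below the dim level. The 14 neutrophil markers measured averaged 5.19 there, 4.54 and 4.73 on the other double knockout arrays and 4.4 to 4.73 on the remaining 9. Of these 14 markers, 5 had their highest value on that array, 2 of them by more than 1 log2 unit, Csf3r and Hdc (5.94 against 3.55 to 4.14). The 11 macrophage and monocyte markers averaged 6.92 there, below the 7.59 of wild type replicate 1 and the 7.45 of double knockout replicate 2, and 2 of them, Cd14 (8.31 against 5.92 to 6.89) and Ccr2 (5.46 against 3.37 to 5.14), were highest on it, while 7 of 11 were highest on wild type replicate 1. The part of these cell types in the values of S100a8, S100a9 and Lcn2 was not tested. Pancreatic acinar cells can also make Reg proteins. On double knockout replicate 2, the array high in acinar genes, Reg1 was at 12.7 and Reg2 at 9.73 against at most 2.9 and 4.33 elsewhere. Reg3b was at 6.52 on that array, above the dim level, and Reg3g at 4.47, below it; the part of acinar RNA in these values was not tested.

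**Figure D4:**
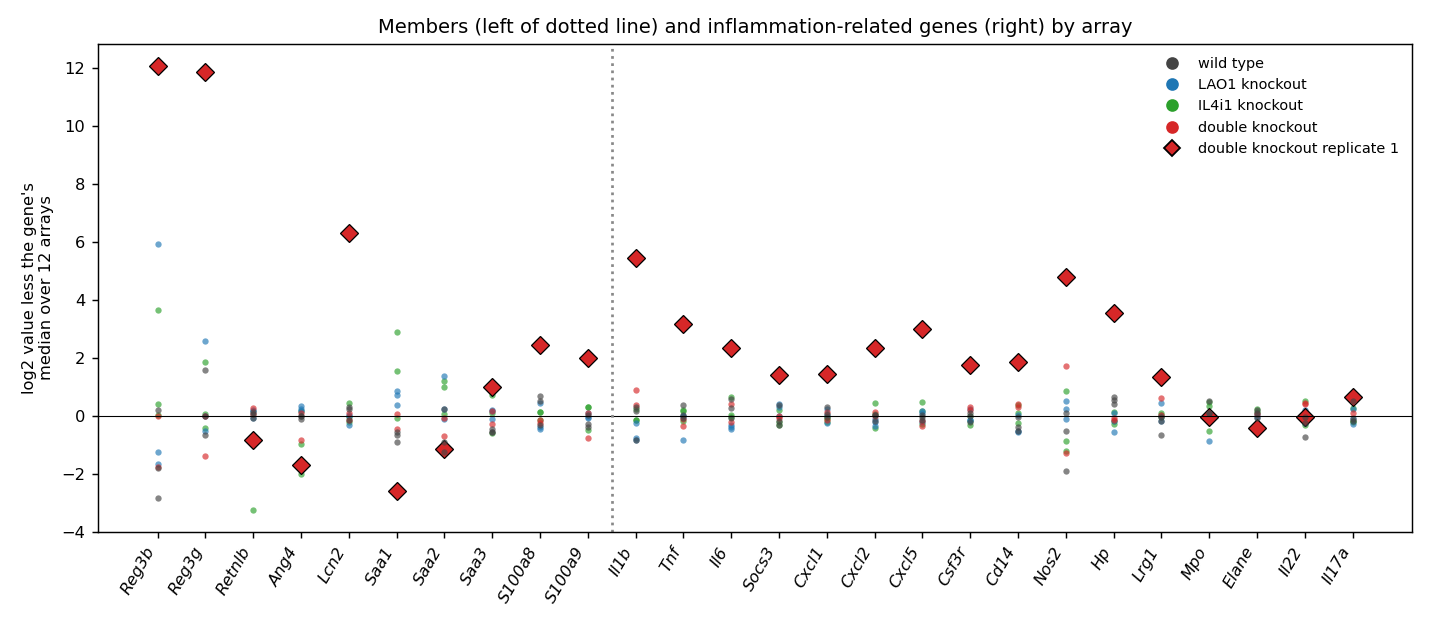
Log2 value on each of 12 arrays less the median of the gene over the arrays, for the 10 members (left of the dotted line) and 16 inflammation-related genes picked for display after their values were seen (right); diamonds mark double knockout replicate 1. The diamond is far above the other arrays for Reg3b, Reg3g, Lcn2 and Il1b, within them for Mpo, Elane and Il22, and just above them for Il17a.

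Related genes were listed by function. Of 25 other antimicrobial genes measured, 0 passed in the double knockout against wild type, with a median difference of 0.18. At an unadjusted p under 0.05, reached by 7.44% of all probes in either direction, 1 was higher and 1 lower. Of the 25 genes, those of smallest p were Wfdc2, a whey acidic protein family protease inhibitor (-0.75, adjusted p = 0.645), Nos2, the inducible nitric oxide synthase (2.51, adjusted p = 0.645), and the peptidoglycan receptor Pglyrp1 (0.64, adjusted p = 0.684). Nos2 was at 10.66, 4.6 and 7.59 in the double knockout and at 3.96, 5.99 and 5.37 in wild type, which overlapped. Wfdc2 was the only listed gene to pass in any of the 6 comparisons: it fell by 2.15 on the log2 scale in the double knockout relative to the IL4i1 knockout (SE 0.32, adjusted p = 0.00928). Its values were 3.95, 3.9 and 3.92 in the double knockout, all dim, against 5.62, 5.61 and 6.98 without IL4i1 alone and 4.84, 4.32 and 4.85 in wild type. Since Wfdc2 was above the dim level on 5 of 12 arrays, the size of this difference is not reliable.

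Among 18 other acute phase genes 0 passed against wild type in the double knockout, and the median difference was 0.06. At an unadjusted p under 0.05, reached by 7.44% of all probes in either direction, 1 was higher. That gene was Lrg1, a leucine-rich glycoprotein of the acute phase (0.95, SE 0.3, adjusted p = 0.503), at 5.95, 4.64 and 5.25 against 3.96, 4.45 and 4.57. Lrg1 was above the dim level on 3 of 12 arrays and on no wild type array, so its difference has no reliable size. Crp (0.33) and the complement factor Cfb (0.38) followed, with adjusted p of 0.807 and 0.854. Haptoglobin, Hp, was at 7.43 on double knockout replicate 1 and 3.32 to 4.54 elsewhere. Of the 18 genes, Cp, Fgb, Serpina3n and Ptx3 stood above the dim level on all 12 arrays, and Saa4, Orm2, Hpx, Itih4, Fga, Fgg, Apcs and Crp on none. Of the 23 genes listed around the interleukin-22 and interleukin-17 route 0 passed, with a median of 0.2. At an unadjusted p under 0.05, 2 were higher, Il1b (2.36, adjusted p = 0.603) and Il22 (0.61, adjusted p = 0.632). At that p 1 was lower, Tlr4 (-0.98, adjusted p = 0.667). All Il22 values lay below the dim level. Of 14 neutrophil genes 0 passed and 4 were higher at that p, among them Mmp8 (0.7), Clec4d (0.91) and Csf3r (0.8), with a median of 0.25. Clec4d and Csf3r had their highest values on double knockout replicate 1. Mmp8 was dim on all 12 arrays and Clec4d on all but 1, so the differences of Mmp8 and Clec4d have no reliable size. In the same comparison 0 of 7 neutrophil chemokines and growth factors passed and Cxcl3 (0.6) alone reached it, followed by Cxcl2 and Cxcl5 (0.87 for both).

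The other cell type lists had 0 members past the threshold in the double knockout against wild type. Median differences were -0.02 over 11 macrophage and monocyte genes (Cd14 1.16, Ly6c2 1.41, Itgax -0.37), 0.2 over 10 epithelial genes (Cldn7 0.77, Krt8 0.32, Vil1 0.34) and -0.16 over 10 goblet genes (Spdef -1.11, Zg16 -0.79, Fcgbp -0.77). They were 0.17 over 10 Paneth cell and small intestinal genes (Mmp7 1.15, Defa24 0.93, Mptx2 -0.7), -0.26 over 9 adipocyte genes (Adipoq -1.63, Fabp4 -1.44, Cidec -0.77) and 0.01 over 8 hepatocyte genes (Apoh 0.23, Tat 0.63, Serpina1a 0.18). Mmp7 and Defa24 were each above the dim level on 1 array only, so their differences have no reliable size. Over 14 acinar genes the median was 3.5 (Ctrl 4.87, Cpa1 4.68, Cpb1 4.38), from double knockout replicate 2. In the IL4i1 knockout, where Saa1 and Saa2 had their highest means, macrophage and monocyte genes had a median of -1.05. Of the 11 genes 7 were lower at an unadjusted p under 0.05 in limma's test (7.58% of all probes in either direction) and 0 passed the threshold. Averages of these genes overlapped, at 7.59, 6.89 and 6.36 on the wild type arrays and 6.3, 5.6 and 6.43 on the IL4i1 knockout arrays.

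The genes whose profiles over the 12 arrays were closest to those of the 5 members with the largest ranges were named by the mean absolute difference between centred values. Reg3g was closest to Reg3b itself among the members (1.19) and, outside them, to 2210407C18Rik (1.26), which was at 16.75 on double knockout replicate 1 and at most 10.76 elsewhere, and to Plet1 (1.51). Outside the members, the nearest to Reg3b were the transcription factor gene Osr2 and 2210407C18Rik (1.61 and 1.62). For Lcn2 they were the matrix metalloproteinase Mmp10 (0.47), at 8.62 on that array and at most 4.86 on the others, and Il1b (0.48). Saa1 was closest to Pdzk1ip1, a small membrane protein of epithelia (0.44), and to the cytochrome P450 gene Cyp2d34 (0.48), both highest on IL4i1 knockout replicate 3 and lowest on double knockout replicate 1. The nearest to Retnlb were Ppib (0.38) and Bag1 (0.4), which encode a cyclophilin and a co-chaperone and were both lowest on IL4i1 knockout replicate 1.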

How the data were processed

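Per the labels' protocols, total RNA of colon was hybridised to Affymetrix arrays as biotin-labelled cRNA. The authors deposited log2 expression values for 22206 probes on 12 arrays. Transcriptome Analysis Console is the tool named, per the submitters' processing notes; the summarisation, normalization and genome build are not given in the sources used here. Array medians lay between 5.42 and 5.49, and values were used as deposited, without a filter. Arrays have no read depth; their number limits the precision. Gene symbols come from the platform annotation and may be outdated.

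A single linear model with a separate mean for each of the 4 genotypes was fitted to the 12 arrays by lmFit and eBayes of limma 3.58.1 (R 4.3.3), and the procedure was checked on simulated data. Tests were two-sided, with Benjamini-Hochberg adjustment over all 22206 probes and a threshold of 0.05. Beside the 10 members, the genes named were the 3 of smallest p in the double knockout against wild type from each list, any listed gene past the threshold, and the 2 nearest profiles of 5 members; further genes were picked after their values were seen. The members and lists were chosen with earlier results of these data known. Alternatives were other normalization, filter, moderation, weights, array sets and a replicate block. The model did not pair arrays by replicate number. Of 18 same-numbered pairs 7 correlated above 0.1 in their deviations from group means (range -0.14 to 0.22). Pairs of unlike number were not compared, so these values cannot decide whether same-numbered arrays share a batch. Plots used matplotlib 3.10.9 (Python 3.11.15).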

Additional observations from a re-analysis of the deposited data

Results flagged for a closer look

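Saa1 stood higher without IL4i1 where LAO1 was present and lower where LAO1 was lost as well. All 3 IL4i1 knockout arrays lay above all 3 wild type arrays, and all 3 double knockout arrays lay below all 3 LAO1 knockout arrays. The difference between these effects, tested as limma's interaction, was -3.81 and did not pass over all probes (adjusted p = 0.229; 0.0488 to 0.501 when 1 array at a time was left out).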

How the results depend on the processing

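Of the 10 genes, 0 passed the threshold in any comparison under any alternative, with 1 exception: the Saa1 interaction passed without IL4i1 knockout replicate 1 (0 to 1 members over the arrays left out). Counts over all probes moved more. For the double knockout against wild type 5 probes passed, 2 with the compared arrays only, 11 with a trended and robust prior, 18 with array weights, and 1 to 38 with 1 array left out (38 without double knockout replicate 2, 1 without wild type replicate 2). The IL4i1 knockout against wild type gave 3, then 8 (trended and robust), 11 (array weights) and 2 to 5 (1 array left out), and the LAO1 knockout 1, then 1 to 4. Against the LAO1 knockout the double knockout gave 31, 60 with array weights and 11 to 68 with 1 array left out; against the IL4i1 knockout it gave 106, 33 with the compared arrays only, 166 with the replicate block and 46 to 174 with 1 array left out. The interaction gave 51, and 37 to 74. The replicate block moved no other count by more than 1.5 times and changed no call of a member. Whether the numbers pair the arrays was not settled.

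Array weights turned the sign of Reg3g in the LAO1 knockout (-0.11) and the IL4i1 knockout (-0.29), of Lcn2 in the IL4i1 knockout (0.011), of Ang4 between the double and IL4i1 knockouts (-0.18) and of the S100a9 interaction (-0.10). Leaving out 1 array turned the sign of 26 member differences, none past the threshold. In the double knockout against wild type these were Reg3g (-1.02 to 5.61), Retnlb (-0.42 to 0.14), Lcn2 (-0.16 to 3.08), Saa1 (-0.82 to 0.52), S100a8 (-0.49 to 0.85) and S100a9 (-0.12 to 1.26), in each case turned by double knockout replicate 1. Against wild type they were Reg3g in the LAO1 knockout (-0.57 to 1.01) and Reg3g and Lcn2 in the IL4i1 knockout (-0.49 to 0.83 and -0.28 to 0.063). Against the LAO1 knockout the double knockout ranged over -1.91 to 5.01 for Reg3b, -1.39 to 5.24 for Reg3g, -0.48 to 0.07 for Retnlb, -0.16 to 0.49 for Saa3, -0.055 to 1.28 for S100a8 and -0.35 to 1.03 for S100a9. Against the IL4i1 knockout it ranged over -2.26 to 4.66 for Reg3b, -1.21 to 5.42 for Reg3g, -0.4 to 0.69 for Ang4, -0.082 to 3.16 for Lcn2, -0.15 to 0.52 for Saa3, -0.24 to 1.1 for S100a8 and -0.39 to 0.99 for S100a9. Interactions ranged over -4.75 to 2.17 for Reg3b, -1.58 to 5.04 for Reg3g, -0.68 to 0.41 for Ang4 and -0.62 to 0.76 for S100a9. The cause was not tested.

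With 3 arrays a genotype, a difference carried by 1 array cannot be tied to genotype. Lcn2, S100a8 and most Reg3g values lie below the dim level, where differences have no reliable size, and Ang4 and Retnlb lie near the ceiling.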
